A study of Homo sapiens with 9 samples.

Results

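The 10 genes described here encode subunits of the transcription factor NF-kB (RELA, RELB, NFKB1 and NFKB2), proteins that hold it in check or modify it (NFKBIA, NFKBIZ, TNFAIP3, TNIP1 and BIRC3), and an adhesion molecule that it induces (ICAM1). They were chosen with earlier results of these data known and taken by name from a table of 43444 loci, and all 10 were found. Where several rows named a gene, the row with most counts was used. The table comes from A549 cells, an established human lung adenocarcinoma line, in 9 RNA-seq libraries. A group of 3 was treated with 2 µM RSL3 and 5 µM ferrostatin-1 (Fer-1), a group of 3 with 2 µM RSL3 alone, and a group of 3 with the vehicle DMSO, each for 24 h. RSL3 blocks the lipid peroxidase GPX4, and Fer-1 is a radical trap that prevents the cell death (ferroptosis) which follows. Separate cultures are not mentioned in the labels, and p-values therefore measure only the spread between these samples, which may be technical.

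NF-kB proteins act as dimers. In resting cells the inhibitor encoded by NFKBIA keeps dimers that contain RELA in the cytoplasm until the IkB kinase marks it for destruction, while in the second, slower branch the kinase MAP3K14 drives the processing of the NFKB2 precursor, whose product pairs with RELB. Several genes that NF-kB switches on encode its own parts or brakes, among them NFKB2, RELB, NFKBIA, TNFAIP3 and BIRC3, which makes the pathway a textbook case of feedback.

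Library totals lay between 39143521 and 45855255 estimated counts. Levels are CPM, counts relative to a library's TMM-scaled total in named loci, and changes are log2 values from the quasi-likelihood test of edgeR, with p-values adjusted (Benjamini-Hochberg) over the 17297 loci that reached 1 FPKM in at least 3 libraries. The threshold for a call was an adjusted p of 0.05. Of the 10 genes 9 passed the minimum, each of them in all 9 libraries, and ICAM1 passed it in 0. Of the markers fixed for the epithelial line, the keratins KRT8 and KRT18 were abundant. They had 653 and 525 CPM with RSL3 plus Fer-1, 690 and 565 CPM with RSL3 and 736 and 585 CPM with DMSO. KRT19, CDH1, the surfactant genes SFTPB and SFTPC, and NKX2-1, in a locus shared with SFTA3, averaged under 1 CPM in every group. No locus was named EPCAM. The 5 fibroblast markers together reached 12.1 to 13.2 CPM with RSL3 plus Fer-1 and 12.9 to 18.7 CPM with RSL3, but 99.1, 125.6 and 16.2 CPM in DMSO replicates 1, 2 and 3. Markers of blood cells summed to 7.22 to 8.12 CPM with RSL3 plus Fer-1, 11.6 to 16.1 CPM with RSL3 and 8.37 to 13.6 CPM with DMSO, led by LYZ, with CD3E at 0 in 8 of the 9 libraries. Endothelial markers together stayed under 2.24 CPM, and no locus was named KDR. All 5 fibroblast markers, COL1A1, COL1A2, COL3A1, PDGFRB and DCN, were higher in DMSO replicates 1 and 2 than in the other 7 libraries. In bulk RNA fewer cells of a type and less RNA per cell cannot be told apart. The part of this difference in the results was not tested beyond repeating each fit without DMSO replicates 1 and 2, and values from those fits are given where a call of the 10 genes changed.

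RSL3 raised the second-branch subunits and the brakes TNFAIP3 and TNIP1, while NFKB1, NFKBIA and BIRC3 did not pass the test. Against DMSO, 6 of the 9 tested genes were called higher and 0 lower, and 4 and 0 without DMSO replicates 1 and 2. Of all tested loci 9.04% were called higher and 7.46% lower, and of the 9583 protein-coding ones 13.7% and 11.2%. The 1564 loci called higher and 1290 called lower became 912 and 510 without those libraries. The median log2 change of the 9 genes was 0.25, beside -0.0065 over all tested loci. In 8 of the 9 genes every RSL3 library lay above every DMSO library, a pattern found in 15.8% of all tested loci (14.9% in the other direction).

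**Figure D1:**
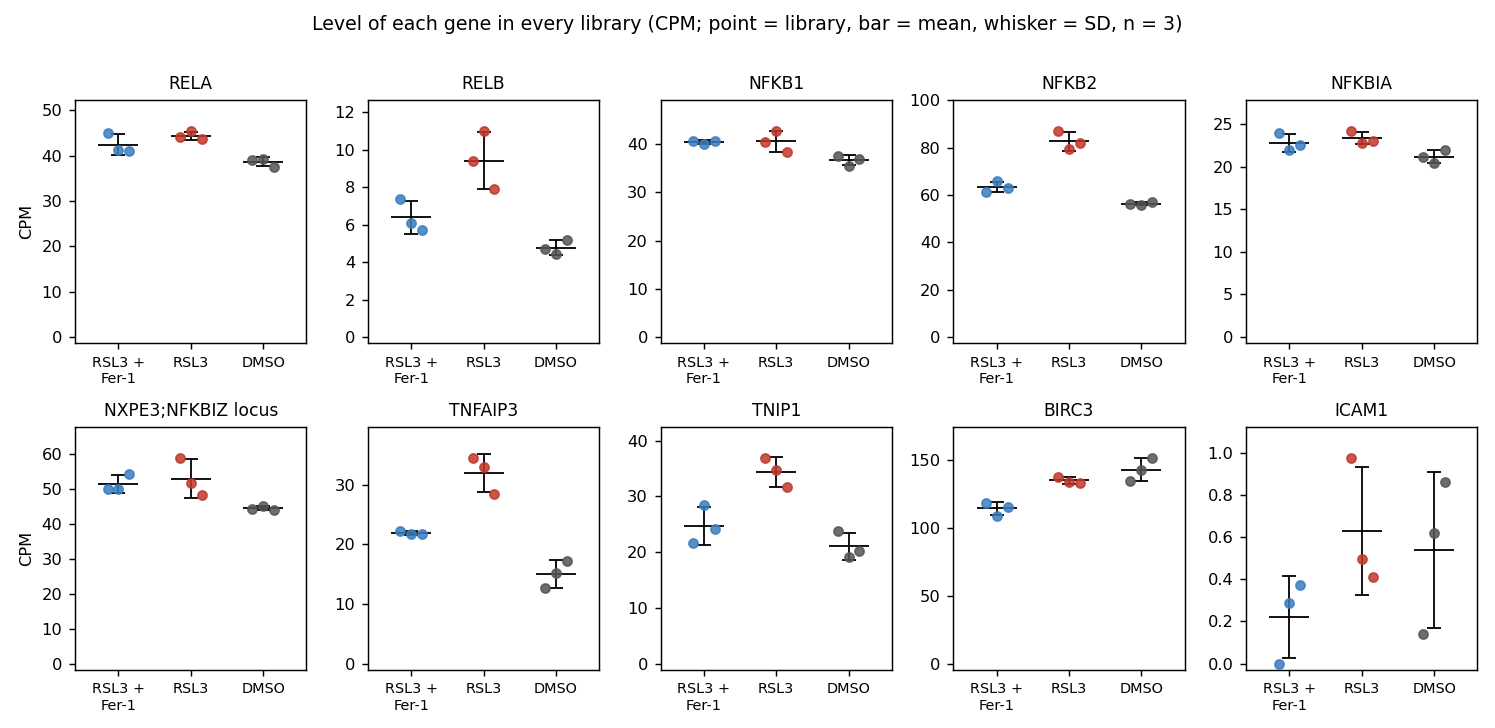
Level of each of the 10 genes in every library, in CPM on linear axes that start near 0; points are libraries, bars the group mean and whiskers the SD (n = 3). TNFAIP3, TNIP1, RELB and NFKB2 are highest in all 3 RSL3 libraries, BIRC3 is lowest in the 3 libraries with RSL3 plus Fer-1, and ICAM1 stays under 1 CPM.

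The start regions of these genes show what a kB site looks like. RefSeq windows on GRCh38.p14, from 250 bases before to 50 after a start site, were at hand for 9 of the 10 genes, 15 windows in all, with none for RELB. They were searched on both strands for the 10-base kB consensus. It was found in 9 of the 15 windows and in 7 of the 9 genes, while 11.3% of the 35116 windows and 13.3% of the 27305 genes of the whole table held it. Several of these genes were known NF-kB targets when chosen, so a high share was likely beforehand and is no result of these data. The 9 genes also have more windows per gene than the whole, which gives each more room for a match. RELA and ICAM1 had no match, which says only that these letters are not in those windows. The antioxidant response element TGACNNNGC was found in 1 of the 15 windows, that of NFKBIA, against 13.3% of all windows. The AP-1 motif TGANTCA was found in 0, against 7.71%. With 15 windows, counts this small cannot be told from those background shares. The windows below are those of genes that rose (TNFAIP3, TNIP1 and the start of NFKB2 whose match is nearest), then of genes that did not (NFKBIA and BIRC3), each read 5′ to 3′ on the gene's strand, with matches to the kB consensus in capitals.
TNFAIP3 (chr6:137867009-137867308, plus strand): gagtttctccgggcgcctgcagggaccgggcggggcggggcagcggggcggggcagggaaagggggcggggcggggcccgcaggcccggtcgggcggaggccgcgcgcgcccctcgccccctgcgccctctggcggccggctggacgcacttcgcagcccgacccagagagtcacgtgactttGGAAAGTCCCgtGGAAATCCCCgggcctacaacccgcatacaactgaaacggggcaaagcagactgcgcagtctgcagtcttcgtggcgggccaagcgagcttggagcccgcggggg
TNIP1 (chr5:151080985-151081284, minus strand): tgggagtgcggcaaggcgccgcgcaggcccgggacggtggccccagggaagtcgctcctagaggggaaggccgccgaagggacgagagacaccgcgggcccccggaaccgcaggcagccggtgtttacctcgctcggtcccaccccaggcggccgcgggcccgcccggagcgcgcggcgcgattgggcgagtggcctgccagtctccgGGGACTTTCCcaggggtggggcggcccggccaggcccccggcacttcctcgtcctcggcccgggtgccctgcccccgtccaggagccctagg
NFKB2 (chr10:102395455-102395754, plus strand): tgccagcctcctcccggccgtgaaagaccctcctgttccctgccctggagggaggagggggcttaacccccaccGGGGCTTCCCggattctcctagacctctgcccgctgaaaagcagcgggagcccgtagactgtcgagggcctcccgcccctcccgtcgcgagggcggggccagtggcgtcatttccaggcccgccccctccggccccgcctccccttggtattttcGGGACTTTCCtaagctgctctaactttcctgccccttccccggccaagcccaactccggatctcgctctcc
NFKBIA (chr14:35404700-35404999, minus strand): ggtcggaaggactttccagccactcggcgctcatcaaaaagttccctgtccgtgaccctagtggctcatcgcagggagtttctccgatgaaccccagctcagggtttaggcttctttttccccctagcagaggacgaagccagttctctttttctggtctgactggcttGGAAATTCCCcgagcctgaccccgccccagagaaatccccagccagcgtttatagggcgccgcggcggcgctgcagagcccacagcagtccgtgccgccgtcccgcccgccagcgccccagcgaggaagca
BIRC3 (chr11:102317234-102317533, plus strand): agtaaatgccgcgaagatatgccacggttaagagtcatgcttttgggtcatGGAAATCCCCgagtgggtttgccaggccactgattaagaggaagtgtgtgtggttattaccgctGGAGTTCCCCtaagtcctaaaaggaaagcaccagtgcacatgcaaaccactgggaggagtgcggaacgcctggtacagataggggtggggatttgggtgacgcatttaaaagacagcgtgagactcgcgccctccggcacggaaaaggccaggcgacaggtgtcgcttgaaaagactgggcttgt

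TNFAIP3 held a close pair of matches on the opposite strand, at -67 to -58 and -55 to -46 from the start. TNIP1 had 1 match on its own strand, at -42 to -33, and NFKB2 had the same 10 letters, GGGACTTTCC, at -21 to -12 of the start shown, besides a match to both strands at -176 to -167. NFKBIA had 1 match at -81 to -72 and BIRC3 a pair, at -199 to -190 and -135 to -126, all on the opposite strand. A match was thus present both in genes that were called higher with RSL3 and in genes that were not. RELA, also called higher, had no match in its windows. The windows printed were picked among those with a match, and a further window each of TNIP1 and NFKB2 held no match.

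**Figure D2:**
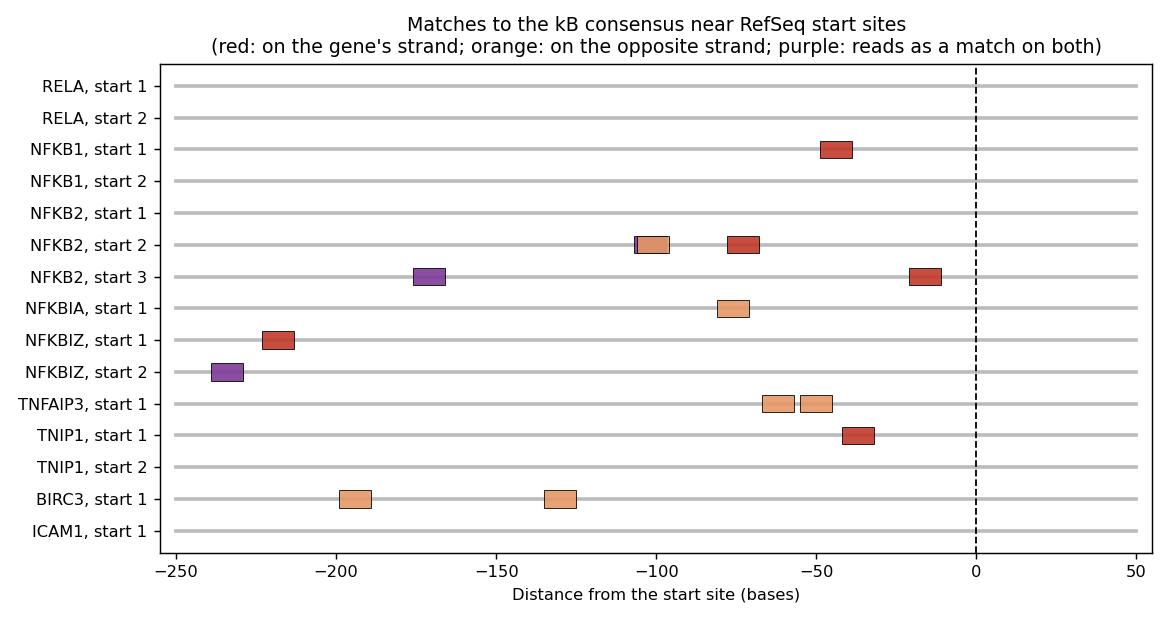
Places of matches to the kB consensus in the 15 RefSeq windows, as distance in bases from the start site (dashed line), with colour for the strand of the match. Matches lie in 9 windows, from -21 to -12 in a window of NFKB2 at the nearest to -239 to -230 in a window of NFKBIZ at the farthest.

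Among the DNA-binding subunits, RELB and NFKB2 rose most. RELB (chromosome 19, 45001449 to 45038284, plus strand; GRCh38 here and below), the partner of processed NFKB2, had 9.37, 11 and 7.91 CPM in the RSL3 libraries, against 4.71, 4.43 and 5.19 CPM in the DMSO libraries. The groups did not overlap, and the 3 RSL3 libraries were spread more widely (SD 1.54 CPM) than the 3 DMSO libraries (SD 0.388 CPM). The log2 change of RELB was 0.98, or 1.97-fold (SE 0.165, adjusted p = 8.27e-05). It is the least abundant of the 4 subunits, with 307 to 444 counts per RSL3 library and 179 to 223 per DMSO library.

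NFKB2 (chromosome 10, 102394110 to 102402524, plus strand), the precursor subunit of the second branch, had 87, 79.3 and 81.8 CPM with RSL3, against 56.2, 55.8 and 57.3 CPM with DMSO. The DMSO libraries were nearly equal, and all 3 RSL3 libraries stood well above them. The log2 change was 0.55, or 1.47-fold (SE 0.0556, adjusted p = 3.08e-08). The call was made under all 22 alternative settings, with log2 changes from 0.50 to 0.58.

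RELA and NFKB1, the subunits of the classical dimer, moved little. RELA (chromosome 11, 65653597 to 65663090, minus strand) had 44.1, 45.4 and 43.7 CPM with RSL3, against 39.1, 39.3 and 37.6 CPM with DMSO. The libraries did not overlap, and RELA was called with a log2 change of 0.20 (SE 0.0658, adjusted p = 0.0364). That call ended when any 1 of the 6 RSL3 and DMSO libraries was left out (log2 changes 0.18 to 0.21, adjusted p from 0.0507 to 0.119), and also with no minimum on low values (0.0672), with filterByExpr (0.0504), with upper-quartile factors (0.0515) and without DMSO replicates 1 and 2 (0.136, at a log2 change of 0.24). NFKB1 (chromosome 4, 102501331 to 102617302, plus strand), which encodes the precursor of RELA's usual partner, averaged 40.5 ± 2.12 CPM with RSL3 and 36.6 ± 1.06 CPM with DMSO (SD, n = 3 each). Its log2 difference of 0.15 had a 95% interval from 0.01 to 0.28 and did not pass after adjustment (adjusted p = 0.157).

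The inhibitor NFKBIA (chromosome 14, 35401513 to 35404749, minus strand), whose destruction frees NF-kB and which NF-kB in turn induces, had 24.2, 22.8 and 23 CPM with RSL3, against 21.1, 20.4 and 21.9 CPM with DMSO. The RSL3 libraries were all higher, by a narrow margin. The log2 difference was 0.14 with a 95% interval from -0.04 to 0.32 (adjusted p = 0.318). NFKBIZ, a nuclear IkB protein that works as a coactivator at a subset of NF-kB target genes, shares its row with the neighbour NXPE3, a gene on the same strand just upstream. The row (chromosome 3, 101779202 to 101861022, plus strand) holds 8 transcripts of NFKBIZ, 7 of NXPE3 and 2 assembled ones, so its value is that of both genes together. This joint locus had 59, 51.7 and 48.2 CPM with RSL3, against 44.2, 45.2 and 44.1 CPM with DMSO. Its log2 change was 0.25 (SE 0.0693, adjusted p = 0.0113). It was 0.17 without RSL3 replicate 1, the highest library (adjusted p = 0.131), and did not pass without DMSO replicates 1 and 2 (log2 change 0.26, adjusted p = 0.119) or in limma on log2(FPKM + 1) (adjusted p = 0.0995).

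The largest change of the 10 was in TNFAIP3, which encodes the ubiquitin-editing enzyme A20 that switches NF-kB signalling off. The gene, whose start region with its pair of kB matches is printed above, lies on chromosome 6, from 137866859 to 137883312 on the plus strand, where the antisense RNA AL357060.1 overlaps its start. It had 34.6, 32.9 and 28.4 CPM with RSL3, against 12.6, 15.2 and 17.3 CPM with DMSO. The groups were far apart, and the DMSO libraries with the lower values were replicates 1 and 2. The log2 rise of TNFAIP3 was 1.09 (95% interval 0.87 to 1.30, adjusted p = 1.14e-08) and at least 0.84 under the 22 alternatives, all of which called it.

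TNIP1 (chromosome 5, 151029531 to 151087166, minus strand), whose product ABIN-1 binds A20 and ubiquitin chains and restrains the same signals, had 36.9, 34.7 and 31.6 CPM with RSL3, against 23.7, 19.1 and 20.2 CPM with DMSO. Its log2 change was 0.71, or 1.64-fold (SE 0.1, adjusted p = 1.06e-05), and the groups did not overlap. BIRC3 (chromosome 11, 102317086 to 102339403, plus strand), which encodes the ubiquitin ligase cIAP2 of the TNF receptor complex, had 138, 134 and 133 CPM with RSL3, against 135, 143 and 152 CPM with DMSO. These libraries overlapped, and the log2 difference was -0.08 with a 95% interval from -0.18 to 0.01 (adjusted p = 0.263).

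ICAM1 (chromosome 19, 10271093 to 10286615, plus strand, overlapped by 2 antisense RNAs), the adhesion molecule that leukocytes bind and that inflammatory cytokines induce on epithelium and endothelium, was close to the counting floor. Its row held 0, 13 and 17 counts with RSL3 plus Fer-1, 39, 20 and 16 counts with RSL3, and 6, 25 and 37 counts with DMSO. RSL3 and DMSO libraries overlapped, while the 3 libraries with both compounds lay under the RSL3 libraries in CPM by a narrow margin. The library at 0 allows up to 0.0688 CPM. In a fit without the FPKM minimum the log2 difference of RSL3 against DMSO was 0.21 (adjusted p = 0.972). The 95% interval ran from -1.30 to 1.73, so these few and scattered counts do not settle whether ICAM1 changed.

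**Figure D3:**
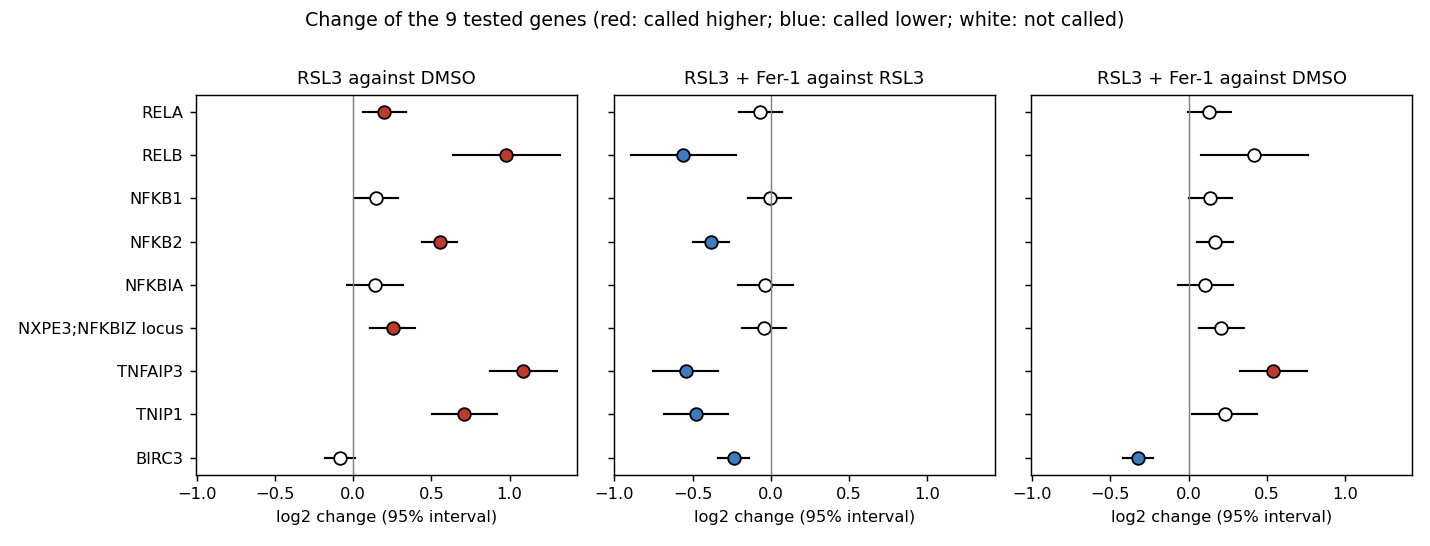
Log2 change of the 9 tested genes in the 3 comparisons, with 95% intervals from the quasi-likelihood fit; filled points passed an adjusted p of 0.05. With RSL3 the red points of TNFAIP3, RELB, TNIP1 and NFKB2 lie between 0.55 and 1.09, and with Fer-1 added the same 4 genes and BIRC3 lie below RSL3.

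Adding Fer-1 to RSL3 lowered the genes that had risen most, and also BIRC3, which had not risen. No group had Fer-1 alone, so effects of Fer-1 itself and of Fer-1 on the RSL3 response cannot be told apart. Of the 9 tested genes 5 were called lower with RSL3 plus Fer-1 than with RSL3 and 0 higher, while 3.99% of all tested loci were called lower and 2.47% higher (5.81% and 3.61% of protein-coding ones). In those 5 genes every library with RSL3 plus Fer-1 lay below every RSL3 library, as in 11.7% of all tested loci (11% lay above). The median log2 change of the 9 genes was -0.24, beside 0.0027 over all tested loci. The blood-cell marker LYZ was called lower in this comparison too, at 2.79 CPM with RSL3 plus Fer-1 and 6.38 CPM with RSL3 (adjusted p = 0.00446), and its part in the result was not tested. This comparison and the one against DMSO share the 3 RSL3 libraries, so a high RSL3 value pushes both, in opposite directions.

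NFKB2 had a log2 change of -0.38 (SE 0.0554, adjusted p = 2.79e-05), with 61.5, 65.9 and 63.1 CPM in the libraries with RSL3 plus Fer-1. TNFAIP3 fell by 0.55 (log2; SE 0.102, adjusted p = 0.000703) to 22.2, 21.7 and 21.8 CPM, the tightest group of any for this gene. TNIP1 fell by 0.48 (SE 0.0997, adjusted p = 0.00269), with 21.6, 28.4 and 24.1 CPM. Its call was absent in limma on log2(FPKM + 1) (adjusted p = 0.0617).

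RELB had 7.38, 6.07 and 5.74 CPM with RSL3 plus Fer-1, each below the lowest RSL3 library. Its log2 change was -0.56 (SE 0.163, adjusted p = 0.0355). The call ended without RSL3 replicates 1 or 2, or without RSL3 plus Fer-1 replicates 2 or 3, with adjusted p up to 0.195, and was missed with no minimum, filterByExpr, the non-robust fit and limma (adjusted p from 0.0558 to 0.0963). The 4 other tested genes did not pass: RELA, NFKB1, NFKBIA and the NXPE3;NFKBIZ locus had log2 differences of -0.07, -0.01, -0.03 and -0.04 (adjusted p from 0.682 to 0.981), with 95% intervals that all lay between -0.21 and 0.14.

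BIRC3 had its lowest level with both compounds. It had 119, 109 and 116 CPM with RSL3 plus Fer-1, under all RSL3 and DMSO libraries. Its log2 change was -0.24 against RSL3 (SE 0.047, adjusted p = 0.00133) and -0.32 against DMSO (SE 0.047, adjusted p = 3.45e-05), and both calls were made under all 22 alternatives. Its neighbour and paralogue BIRC2, which encodes cIAP1, differed by -0.19 against RSL3 and by -0.03 against DMSO (adjusted p = 0.0785 and 0.906). ICAM1 stood 1.49 lower on the log2 scale with RSL3 plus Fer-1 than with RSL3 in the fit without the minimum (95% interval -3.08 to 0.10, adjusted p = 0.531).

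Set against DMSO, few of these genes were called with RSL3 plus Fer-1. The median log2 change of the 9 tested genes was 0.17, beside -0.00039 over all tested loci. TNFAIP3 was the 1 gene of 9 called higher, with a log2 change of 0.54, or 1.46-fold (SE 0.103, adjusted p = 0.000962), and BIRC3 the 1 called lower. Of all tested loci 4.03% were called higher and 2.66% lower, and of protein-coding ones 6.29% and 4.05%. The TNFAIP3 libraries with both compounds, at 21.7 to 22.2 CPM, lay between the 3 RSL3 libraries and the 3 DMSO libraries without touching either. Without DMSO replicates 1 and 2, the remaining TNFAIP3 difference was 0.34 (adjusted p = 0.217), with DMSO replicate 3 the highest of its group. The log2 differences of NFKB2 and RELB were 0.17 and 0.42 (adjusted p = 0.0669 and 0.15), and that of TNIP1 0.23 (adjusted p = 0.21). In 6 of the 9 genes all libraries with RSL3 plus Fer-1 lay above all DMSO libraries, against 12.2% of all tested loci (11.1% for the reverse, as in BIRC3), and the NXPE3;NFKBIZ locus was among them, with 49.9, 50.1 and 54.3 CPM with RSL3 plus Fer-1.

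The order of the genes by level per transcript length, in FPKM, was led by NFKB2 in every group, at 11.1 ± 0.379 FPKM with RSL3 plus Fer-1, 14.5 ± 0.676 with RSL3 and 9.95 ± 0.112 with DMSO (SD, n = 3 each). BIRC3, NFKBIA, RELA and NFKB1 followed in RSL3 and in DMSO libraries, and with RSL3 plus Fer-1 NFKBIA (7.96 ± 0.379 FPKM) came before BIRC3 (7.12 ± 0.317 FPKM). TNFAIP3 reached 5.15 ± 0.501 FPKM with RSL3, where its libraries overlapped those of NFKB1 at 5.27 ± 0.272 FPKM. With DMSO its level was 2.43 ± 0.373 FPKM and NFKB1 stood clear of it at 4.8 ± 0.142 FPKM. RELB was the least abundant of the 9 tested in each group, at 1.7 ± 0.24 FPKM with RSL3 plus Fer-1, 2.51 ± 0.412 with RSL3 and 1.28 ± 0.102 with DMSO, and ICAM1 came last, at up to 0.229 FPKM in a library. Other neighbours whose libraries overlapped were TNFAIP3 and TNIP1 in every group, BIRC3 and NFKBIA with RSL3, BIRC3 and RELA with both compounds, TNIP1 and the NXPE3;NFKBIZ locus with both compounds, TNFAIP3 and that locus with DMSO, and that locus and RELB with RSL3.

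**Figure D4:**
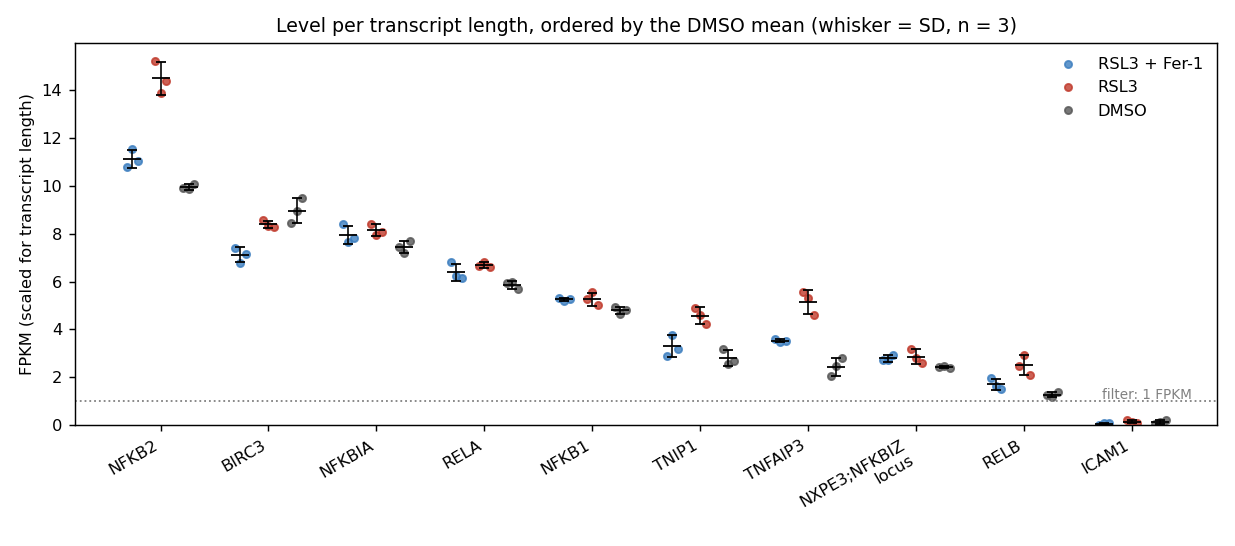
Levels per transcript length in FPKM, as deposited, for the 10 genes ordered by their DMSO mean; points are libraries, bars the mean and whiskers the SD (n = 3), and the dotted line is the minimum of 1 FPKM for testing. NFKB2 leads in every group, and RELB stands just above the minimum with DMSO (1.28 FPKM) and ICAM1 under it in all 9 libraries.

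Of 21 kinases and adaptors upstream of NF-kB 19 were tested, and 3 rose with RSL3 against DMSO, 0 fell and 16 did not pass, with a median log2 change of 0.05. That is near the background, where 9.04% of all tested loci and 13.7% of protein-coding ones were called higher. The 3 were the death-domain adaptor TRADD (0.62, adjusted p = 0.031) and the interleukin-1 receptor kinases IRAK2 (0.54, adjusted p = 0.00294) and IRAK4 (0.41, adjusted p = 0.0065). With any 1 of RSL3 replicate 1, DMSO replicate 1 and DMSO replicate 2 removed, TRADD was no longer called (adjusted p from 0.071 to 0.219). With both DMSO replicates 1 and 2 removed, neither TRADD nor IRAK2 was (adjusted p = 0.312 and 0.052), at log2 changes of 0.54 and 0.62. The kinase of the second branch, MAP3K14, averaged 33 CPM with RSL3 and 31.9 CPM with DMSO (adjusted p = 0.756), and its degrading adaptor TRAF3 differed by 0.10 (adjusted p = 0.157). With RSL3 plus Fer-1 against RSL3, TAB3, a ubiquitin-binding adaptor of the kinase MAP3K7, was the 1 of 19 called (3.99% of all tested loci were called lower), and it fell by 0.22 (adjusted p = 0.00745), a call that ended without RSL3 replicate 1 (adjusted p = 0.076). TRAF1 and MYD88 were under the minimum.

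Of 17 ligands and receptors 6 were tested, and the cytokine IL1A was there only because its 3 RSL3 libraries reached 1 FPKM, as 0 of the other 6 libraries did. Of the other 5 tested, 4 rose with RSL3 against DMSO and 0 fell, beside 9.04% and 7.46% of all tested loci (13.7% and 11.2% of protein-coding ones). This list too was chosen with earlier results of these data known. The TNF receptor TNFRSF1A had 132 ± 2.98 CPM with RSL3 and 102 ± 5.18 CPM with DMSO (SD, n = 3 each), a rise of 0.37 (adjusted p = 3.24e-06). TNFRSF21, a death receptor, rose by 0.34 (adjusted p = 0.000126). The TWEAK receptor TNFRSF12A was called 0.22 higher (adjusted p = 0.00492), and the lymphotoxin receptor LTBR, in a locus shared with AC005840, 0.18 higher (adjusted p = 0.0138). Without DMSO replicates 1 and 2 their log2 changes were 0.15 and 0.07 (adjusted p = 0.255 and 0.644). Leaving out DMSO replicate 2 alone ended both calls (log2 changes 0.16 and 0.13), and that of LTBR also ended without DMSO replicate 1 or RSL3 replicate 1 (log2 changes 0.16 and 0.15). Of these 5 genes 0 were called with Fer-1 added to RSL3 (adjusted p from 0.0561 to 0.904). IL1A averaged 1.24 CPM with RSL3 plus Fer-1, 3.86 CPM with RSL3 and 2.12 CPM with DMSO, values that the minimum selected for a high RSL3 level. TNF, LTA and CD40 had at most 0.0678 CPM in the mean of any group, and LTB, IL1B, TNFSF12, TNFRSF1B, IL1R1, TLR2, TLR3 and TLR4 were under the minimum too.

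Among 7 other Rel and IkB genes 6 were tested. With RSL3 against DMSO 1 was called lower and 0 higher, and the same numbers held with RSL3 plus Fer-1 against RSL3. Over all tested loci 7.46% and 3.99% were called lower in these comparisons (11.2% and 5.81% of protein-coding ones). Counts this small cannot be told from the background. REL, the remaining subunit, was the 1 that moved with RSL3 and it fell, at 38.1 CPM with RSL3 against 47.8 CPM with DMSO (log2 change -0.33, adjusted p = 0.00142; -0.31 and 0.052 without DMSO replicates 1 and 2). Its row also names AC010733. BCL3, a nuclear IkB protein, averaged 6.36 CPM with RSL3 plus Fer-1 against 10.3 CPM with RSL3 and was called lower there (-0.69, adjusted p = 0.005; 0.0536 without RSL3 plus Fer-1 replicate 2), the 1 call of that list in that comparison. NFKBID was under the minimum.

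Of 17 genes for ubiquitin editing and other brakes 16 were tested, of which 2 rose and 1 fell with RSL3 against DMSO. That share is close to the background, where 9.04% of all tested loci rose and 7.46% fell (13.7% and 11.2% of protein-coding ones). With RSL3 plus Fer-1 against RSL3 1 of the 16 fell, beside 3.99% of all tested loci and 5.81% of protein-coding ones. ZC3H12A, an RNase that degrades cytokine mRNA, averaged 34.3 CPM with RSL3 plus Fer-1, 31.3 CPM with RSL3 and 20 CPM with DMSO. It rose by 0.65 with RSL3 (adjusted p = 3.96e-07) and did not pass with Fer-1 added to RSL3 (0.13, adjusted p = 0.377), unlike TNFAIP3 and TNIP1, though that difference between genes was not tested. RBCK1, a part of the linear ubiquitin ligase, rose by 0.52 (adjusted p = 2.51e-05), and TRAFD1, a negative regulator of innate signalling, fell by 0.39 (adjusted p = 0.000165). CYLD, a deubiquitinase that limits NF-kB, was the 1 called with RSL3 plus Fer-1 against RSL3 (-0.28, adjusted p = 0.0388), a call lost on leaving out any 1 RSL3 library or RSL3 plus Fer-1 replicates 2 or 3 (adjusted p up to 0.211). No locus was named TNIP3.

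Other known NF-kB targets rose in 13 of 22 tested, with 0 falls, for RSL3 against DMSO, and fell in 10 with 1 rise for RSL3 plus Fer-1 against RSL3. Over all tested loci 9.04% rose and 7.46% fell in the first comparison, and 3.99% fell and 2.47% rose in the second. Of protein-coding loci 13.7% rose and 11.2% fell in the first, and 5.81% fell and 3.61% rose in the second. The median log2 changes of the list were 0.35 and -0.29. The list was chosen with earlier results of these data known, so its counts and medians may partly reflect that choice. Of the 22 genes 17 reached 1 FPKM in all 9 libraries, and 0 reached it in the libraries of 1 group only. CSF1 reached it in 3 RSL3 libraries, 1 library with RSL3 plus Fer-1 and 0 DMSO libraries. It thus passed the minimum only through its RSL3 libraries, and the minimum selected its value for a high RSL3 level. This macrophage growth factor gene, with a log2 change of 0.93, is among the 13 called higher and in the medians, where it adds no support. Of the other genes, the chemokines CXCL8 and CXCL2 led, at 3.86 and 2.32 on the log2 scale. IER3 and PTGS2 followed, at 1.26 and 1.16 (adjusted p up to 3.69e-07 for the genes from CXCL8 to PTGS2). In limma on log2(FPKM + 1) CSF1 was not called (adjusted p = 0.071), nor was LTBR for RSL3 against DMSO (0.108) or TAB3 and CYLD for RSL3 plus Fer-1 against RSL3 (0.0814 and 0.202). With Fer-1 added to RSL3, CXCL8, CXCL2 and IER3 fell by 1.86, 1.23 and 1.14 (adjusted p up to 7.96e-06), while PTGS2 and CSF1 differed by -0.11 and -0.37 (adjusted p = 0.74 and 0.288). The 1 rise was in BMP2 (0.32, adjusted p = 0.00147), named after its value was seen. Under the minimum were CXCL1, CXCL3, CXCL5, CCL2, CCL20, IL6, IL32, CSF2, VCAM1, SELE, BCL2A1, PLAU and PTX3, so the adhesion genes VCAM1 and SELE, like ICAM1, were not expressed enough to test in these cells.

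**Figure D5:**
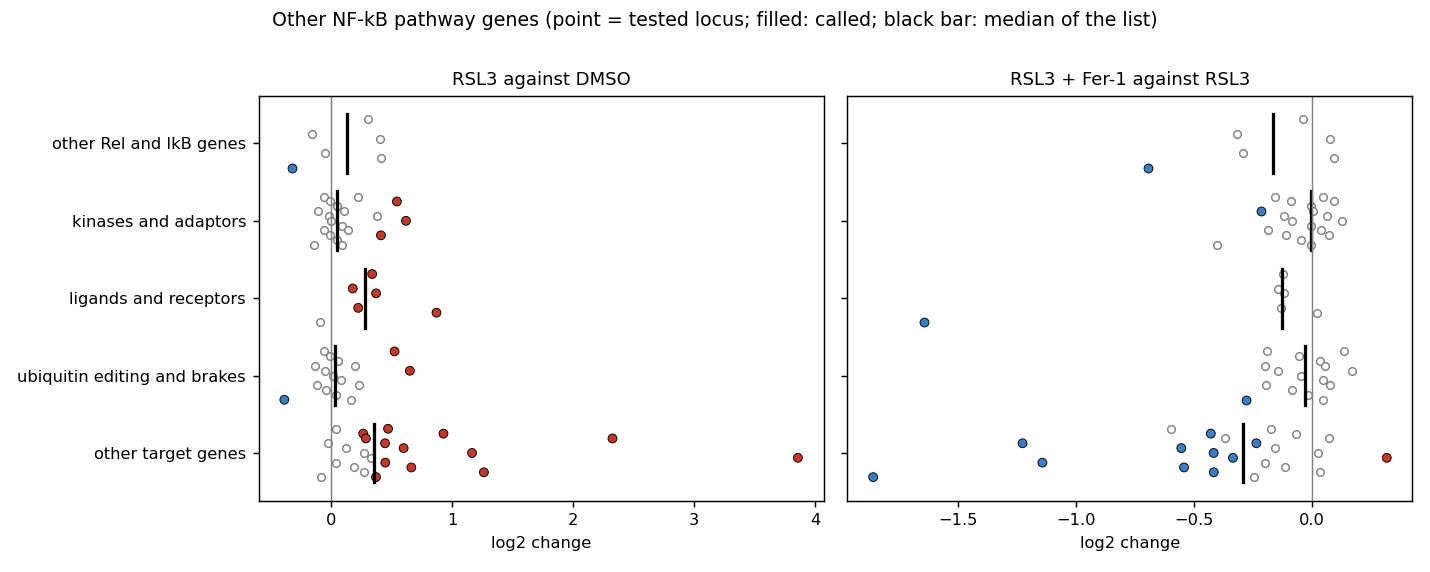
Log2 change of each tested gene in 5 lists of other NF-kB pathway genes, for RSL3 against DMSO and for RSL3 plus Fer-1 against RSL3, on separate linear axes; filled points passed an adjusted p of 0.05 and black bars are list medians. Kinases and adaptors centre near 0 (0.05 and -0.01) and other target genes at 0.35 and -0.29.

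Of the loci naming a single gene, those whose log2 CPM followed the mean standardised profile of the 9 tested genes most closely over the 9 libraries were CTSL, PLEKHG2, KDSR, DOCK4 and ANXA1, with Pearson correlations from 0.979 to 0.986. They were chosen for this likeness out of all tested loci and share libraries and depth with the profile. With RSL3 against DMSO their log2 changes ran from 0.29 to 0.77, and with Fer-1 added to RSL3 from -0.13 to -0.37.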

How the data were processed

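Total RNA went into the libraries, per the labels. Whether strand was kept is not given in the sources used here, and overlapping genes may share reads. The submitters' processing notes name cutadapt 1.9, FastQC and build GRCh38; aligner and counter: not given in the sources used here. The deposited table holds an estimated count per locus and library, in whole numbers not scaled for depth or length, and the authors' FPKM, scaled for transcript length and depth, per the file headers. Whether the counts are tallies of reads or estimates from coverage is not settled. Locus coordinates are those of the table. Loci without a gene name (1496, with 0.48 to 0.546% of a library's counts) were left out. Library totals of 39143521 to 45855255 mean that a library at 0 allows up to 3 counts, a floor that covers counting error only.

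TMM scaling was followed by edgeR 4.0.16 (R 4.3.3), in 1 robust quasi-likelihood model of 3 groups, after a minimum of 1 FPKM in 3 of 9 libraries; the SE comes from the F statistic, and a prior count of 2 was used for log2 CPM. The test was checked on simulated counts. Alternatives were RLE and upper-quartile factors, no filter and filterByExpr, DESeq2 1.42.0, limma 3.58.1 on log2(FPKM + 1) and log2(FPKM + 0.1), a non-robust fit, only the groups compared, all loci, the sum of all rows of a gene, the replicate block, each library left out, and, chosen after seeing the data, DMSO replicates 1 and 2 left out, where the lone DMSO library is assumed to vary like the other groups.

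The 10 genes and the lists were chosen with earlier results of these data known. From each list the text names up to 5 genes called in RSL3 against DMSO or in RSL3 plus Fer-1 against RSL3, by the size of the change between RSL3 and DMSO, and those under the minimum; MAP3K14, TRAF3 and BIRC2 are named for their roles. Whether replicate numbers pair the samples is not given in the labels, and the main fit did not treat them as pairs.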

Additional observations from a re-analysis of the deposited data

How the results depend on the processing

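Between 9 leave-one-out fits and 13 other settings, the number of the 9 tested genes called higher with RSL3 was 4 to 6 against 6, and called lower with RSL3 plus Fer-1 against RSL3 3 to 5 against 5. In both limma fits that second number was 3. With limma on log2(FPKM + 1), loci called in RSL3 plus Fer-1 against RSL3 numbered 176 higher and 379 lower, against 427 and 690, and in RSL3 plus Fer-1 against DMSO 303 and 193, against 697 and 460; on log2(FPKM + 0.1) they numbered 167 and 358, and 309 and 196. For RSL3 plus Fer-1 against DMSO, genes of the 9 called higher numbered 3 with DESeq2 and 2 in a fit of only those groups, against 1. Leaving out 1 library gave 1 to 2 there, and 259 to 423 loci higher and 494 to 708 lower for RSL3 plus Fer-1 against RSL3, 442 to 724 and 268 to 503 for RSL3 plus Fer-1 against DMSO, and 1253 to 1550 and 913 to 1274 for RSL3 against DMSO. Without DMSO replicates 1 and 2 the loci numbered 912 and 510 for RSL3 against DMSO and 282 and 142 for RSL3 plus Fer-1 against DMSO, where 0 of the 9 genes were called higher; these fits have fewer samples. NFKB1 in RSL3 plus Fer-1 against RSL3 had log2 changes from -0.04394 to 0.02939 with 1 library left out, above 0 without RSL3 replicate 2 and, at 0.0016, without RSL3 plus Fer-1 replicate 2, and the NXPE3;NFKBIZ locus from -0.1065 to 0.03943, above 0 without RSL3 replicate 1; the cause was not tested, and neither gene was called there. With the replicate block, 1544 loci were higher and 1259 lower with RSL3, 399 and 669 with RSL3 plus Fer-1 against RSL3, and 686 and 455 with RSL3 plus Fer-1 against DMSO, and no call of the 9 genes changed. Same-numbered samples had deviations correlated between -0.0497 and 0.0657, so the numbers are not taken as pairs; between RSL3 plus Fer-1 and DMSO every sample correlated best with its own number, a hint from the data only. ICAM1 had few counts that differed widely between libraries of a group, and its 95% interval for RSL3 against DMSO spans -1.30 to 1.73.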

Other observations

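The collagen genes COL1A1, COL1A2 and COL3A1 stood at 49.3, 32.8 and 11.9 CPM in DMSO replicate 1 and at 62.6, 41.3 and 15.3 CPM in DMSO replicate 2. In DMSO replicate 3 they stood at 11.48, 1.79 and 0.978 CPM, and in the 6 libraries with RSL3 they lay between 9.41 and 11.9, between 0 and 3.19, and between 0.154 and 1.66 CPM. KRT19 was likewise present at up to 1.56 CPM in those DMSO libraries.

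A pair of further rows carry names of the genes described here. An unstranded row of 1 assembled transcript named NFKBIA, on chromosome 14 from 35399558 to 35399836, held 2, 27 and 2 counts with RSL3 plus Fer-1, 0, 0 and 6 with RSL3 and 0, 2 and 1 with DMSO, so most of its counts were in RSL3 plus Fer-1 replicate 2. A minus-strand row inside BIRC3, on chromosome 11 from 102332571 to 102336516, held 7, 4 and 13 counts with RSL3 plus Fer-1, 12, 8 and 12 with RSL3 and 9, 3 and 4 with DMSO. Adding these rows to NFKBIA and BIRC3 changed no call.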
